A study of Arabidopsis thaliana with 36 samples.

Results

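A set of 279 *Arabidopsis* genes was below 1 TPM in every one of the 18 *h3.3ko* seed libraries and averaged at least 10 TPM in at least 1 of the 6 Col groups. They were chosen by those 2 limits from a table of 27655 genes (TPM is a gene's reads per gene length, scaled to the same total in every library), of which 13595 reached 10 TPM in Col, so the set held 2.05% of the genes expressed in Col seeds. Because the *h3.3ko* and Col values chose the genes, the difference between the genotypes is given below as a description and was not tested. All 279 were nuclear, protein-coding genes.

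Histone variant H3.3 is a form of histone H3 that is placed in chromatin without DNA replication, and in *Arabidopsis* it is encoded by *HTR4*, *HTR5* and *HTR8*. A dry seed holds stored transcripts from maturation. On imbibition it starts new transcription, and once the radicle protrudes the embryo turns to growth, which calls on enzymes that loosen and rebuild cell walls, on cell division and on the building of chloroplasts.

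Whole seeds of *h3.3ko*, in which *HTR4* and *HTR5* carry edited alleles and *HTR8* a T-DNA insertion, were compared with seeds of the wild type Col. Each genotype was sampled as mature seeds (MS), after 12, 24 and 48 h of cold stratification (S12h, S24h and S48h) and after 12 and 24 h under germination conditions that followed stratification (G12h and G24h), with 3 libraries per group and 36 in all. The *h3.3ko* seeds came from mother plants that carried a hemizygous *HTR5* rescue transgene and were picked as the seeds without its fluorescent marker, so their seed coats were of a rescued genotype. Per the study's methods Col seeds had completed germination by G24h and *h3.3ko* seeds had not, so genotype and germination stage cannot be told apart at that time. In whole seeds, fewer cells of a type and less RNA per cell also cannot be told apart.

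Libraries held 17.0 to 19.3 M reads on genes. *HTR8* ranged between 1.47 and 14.9 TPM in the 18 *h3.3ko* libraries, against 132 to 2242 TPM in the 18 Col libraries, and *HTR4* between 20.5 and 71.8 TPM in *h3.3ko*, against 125 to 510 TPM in Col. *HTR5* overlapped, with 107 to 315 TPM in *h3.3ko* and 289 to 828 TPM in Col, and an edited allele can still be transcribed. The 8 seed storage protein genes took a mean of 34.1, 26.2, 19.2, 14.3, 11.4 and 17.2% of all TPM in *h3.3ko* over the 6 times in order, against 10.1, 6.02, 2.49, 0.573, 0.0323 and 0.0322% in Col. Since TPM are shares of a total, that moves every other *h3.3ko* value down. With median-of-ratios scaling in place of TPM, which rescales the Col libraries as well, 202 genes met the limits. The part of the storage transcripts in that change was not tested. One library stood apart: *h3.3ko* G24h replicate 1 held 2240 reads on the 279 genes, against 1243 and 1294 in replicates 2 and 3.

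The promoters printed here show what a run of bases shared by part of the set looks like in place. They belong to the 4 genes with the highest Col level among the 29 that carry an RY element (CATGCA on either strand) within 200 bases before the annotated start. RY elements are bound by the seed maturation factors ABI3, FUS3 and LEC2. The sequences were read from the TAIR10.1 assembly on the strand of the gene, 5′ to 3′, and end at the base before the start. Capitals mark RY elements, and TATAAA on the gene's strand.
GH3.1 (AT2G14960), chr2:6453798-6453997, minus strand: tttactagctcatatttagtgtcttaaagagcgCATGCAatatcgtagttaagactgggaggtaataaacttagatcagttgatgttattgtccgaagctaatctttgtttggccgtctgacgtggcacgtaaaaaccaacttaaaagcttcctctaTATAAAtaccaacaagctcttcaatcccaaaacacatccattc
LATE (AT5G48890), chr5:19819748-19819947, plus strand: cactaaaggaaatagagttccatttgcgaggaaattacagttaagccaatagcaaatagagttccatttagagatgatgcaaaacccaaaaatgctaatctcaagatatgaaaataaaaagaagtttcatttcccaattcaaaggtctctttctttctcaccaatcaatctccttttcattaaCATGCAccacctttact
AT3G20395, chr3:7113900-7114099, minus strand: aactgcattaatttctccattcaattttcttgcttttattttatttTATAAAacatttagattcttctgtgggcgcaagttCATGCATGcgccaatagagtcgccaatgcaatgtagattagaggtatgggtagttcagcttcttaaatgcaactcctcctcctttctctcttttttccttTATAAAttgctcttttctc
AT2G42660, chr2:17768380-17768579, minus strand: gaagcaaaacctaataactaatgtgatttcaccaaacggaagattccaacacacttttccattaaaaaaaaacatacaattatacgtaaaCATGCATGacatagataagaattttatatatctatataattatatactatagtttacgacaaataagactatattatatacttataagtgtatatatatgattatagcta

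In *AT3G20395* and *AT2G42660* the capitals CATGCATG are a pair of overlapping RY elements, 1 on each strand. Counted over the window of 250 bases before to 50 after the start, 15.1% of the 279 promoters held an RY element, against 7.67% of the promoters of the other genes at 10 TPM or more in Col and 9.72% of all promoters. The site II element TGGGCC, found in promoters of many ribosomal protein and cell cycle genes, was present in 10 of the 279 promoters (3.58%), against 22.5% of the other Col-expressed genes and 15.5% of all promoters. TATAAA was present in 61.6% of the set, against 50.5% of the other Col-expressed genes and 52.1% of all promoters. Each motif was looked for on both strands, and a match is a description of letters. Other motifs differed by fewer percentage points. The G-box CACGTG was in 9.32% of the set against 10.2% of the other Col-expressed genes, the I-box GATAAG in 19.4% against 14.97%, the gibberellin response element TAACAAA in 21.9% against 18.1%, the abscisic acid response element ACGTGGC in 3.94% against 5.65%, and the telo box AAACCCTA in 3.94% against 6.28%. The G-box can overlap the abscisic acid element. In all promoters the G-box share was 7.68%, the I-box share 14.6%, the gibberellin element share 18.4%, the abscisic acid element share 4.08% and the telo box share 6.22%. The L1 box, TAAATGCA or TAAATGTA, was in 5.73% of the set, 4.99% of the other Col-expressed genes and 5.10% of all promoters. These shares were not matched for time. Promoters of the 215 members that peaked at G24h can be set against 3438 from other Col-expressed genes that did. There RY elements were in 16.3% against 7.94%, site II in 4.65% against 20.7% and TATAAA in 57.7% against 50.6%. The I-box was in 19.1% against 12.8%, the telo box in 3.72% against 3.72% and the abscisic acid element in 2.79% against 5.61%.

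Most of the genes came up late in Col. Taken in time order from MS to G24h, 8, 3, 4, 12, 37 and 215 of the 279 had their highest Col mean at that time. Among all Col-expressed genes with their highest mean at a given time, the share that was silent in *h3.3ko* was 0.731% for MS and 0.136, 0.258 and 0.463% for the 3 stratification times, then 1.50% for G12h and 5.85% for G24h. The median Col mean of the set was 0, 0.0209, 0.0525, 0.198, 3.55 and 14.5 TPM over the 6 times, and 255, 239, 231, 185, 81 and 9 of the genes averaged under 1 TPM in Col at those times. Before G24h, 97 of the genes had reached 10 TPM in Col, and 36 had done so before G12h.

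Genes that were off in Col until the last step were mostly in the set. There were 111 genes with Col means under 1 TPM at each of the 5 earlier times and at least 10 TPM at G24h, and 67 of them (60.4%) belonged to the silent set, while 4 of the 111 averaged at least 10 TPM in *h3.3ko* at G24h. Summed over the 279 genes, *h3.3ko* libraries held 103.4, 56.1 and 57.2 TPM at G24h, against 5265, 5659 and 5947 TPM in Col. At MS the sums were 20.3, 19.0 and 15.8 TPM in *h3.3ko* and 268, 283 and 269 TPM in Col, and 10 genes at 10 TPM or more carried 79.4% of the Col sum. Counted gene by gene, more members were higher than lower in *h3.3ko* at the 2 earliest times. Most were near 0 TPM in both genotypes there, so a few reads set the direction. These counts were not made over all genes, and the rule used the *h3.3ko* values, so they do not show a reversal of the summed difference. At MS the mean was higher in *h3.3ko* for 121 of the 279 genes, lower for 80 and 0 in both for 78, and at S12h it was higher for 147 and lower for 90. The median member had 0.0227 TPM in *h3.3ko* and 0 TPM in Col at MS, and 0.0540 TPM in *h3.3ko* and 0.0209 TPM in Col at S12h. No read in 3 libraries was found for 96 genes in *h3.3ko* and 156 in Col at MS, and for 51 in *h3.3ko* and 118 in Col at S12h. From S24h more members were lower in *h3.3ko*, 139 against 104 that were higher, and at G24h 276 were lower and 2 higher.

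**Figure D1:**
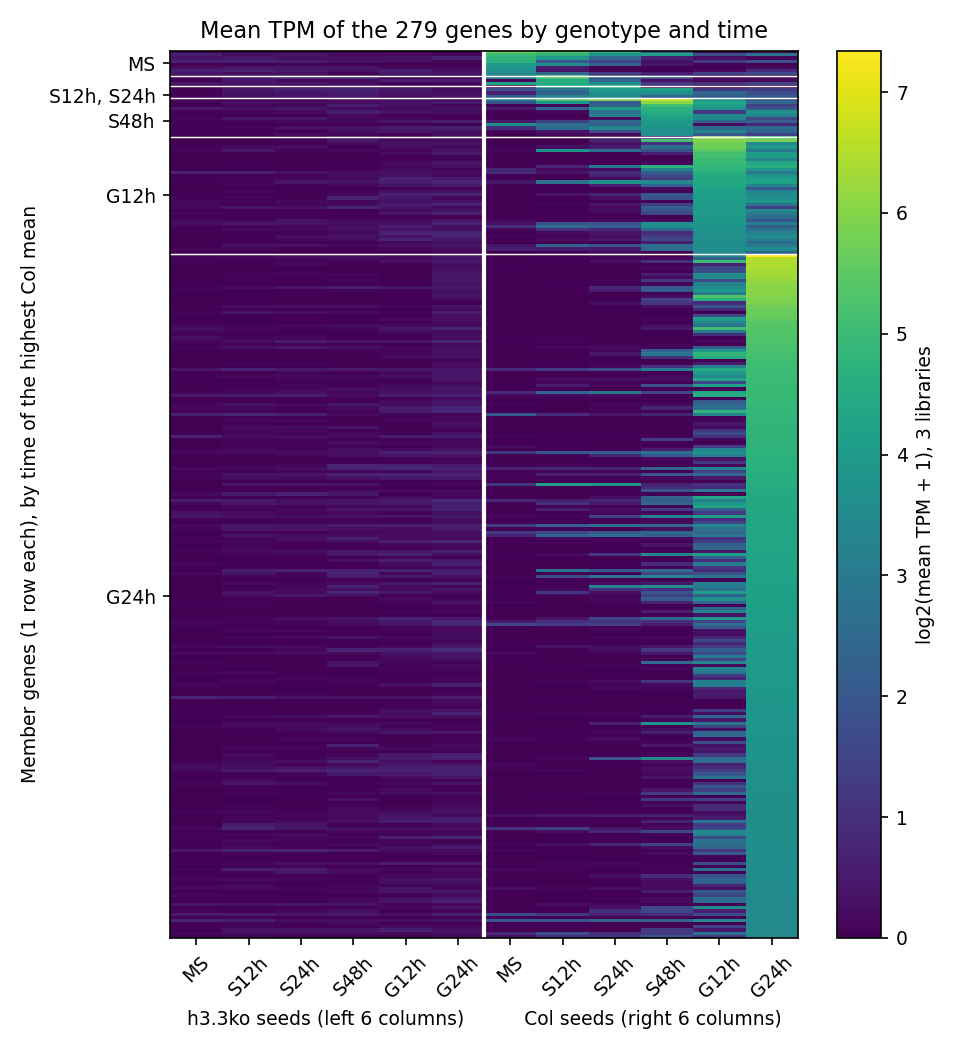
Group mean levels of the 279 genes, 1 row per gene, as log2(mean TPM + 1) of 3 libraries, with *h3.3ko* in the left 6 columns and Col in the right 6, and rows ordered by the time of the highest Col mean. The Col side brightens from G12h and most of all at G24h, where 215 genes peaked; every *h3.3ko* library is under 1 TPM by the rule that chose the genes.

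**Figure D2:**
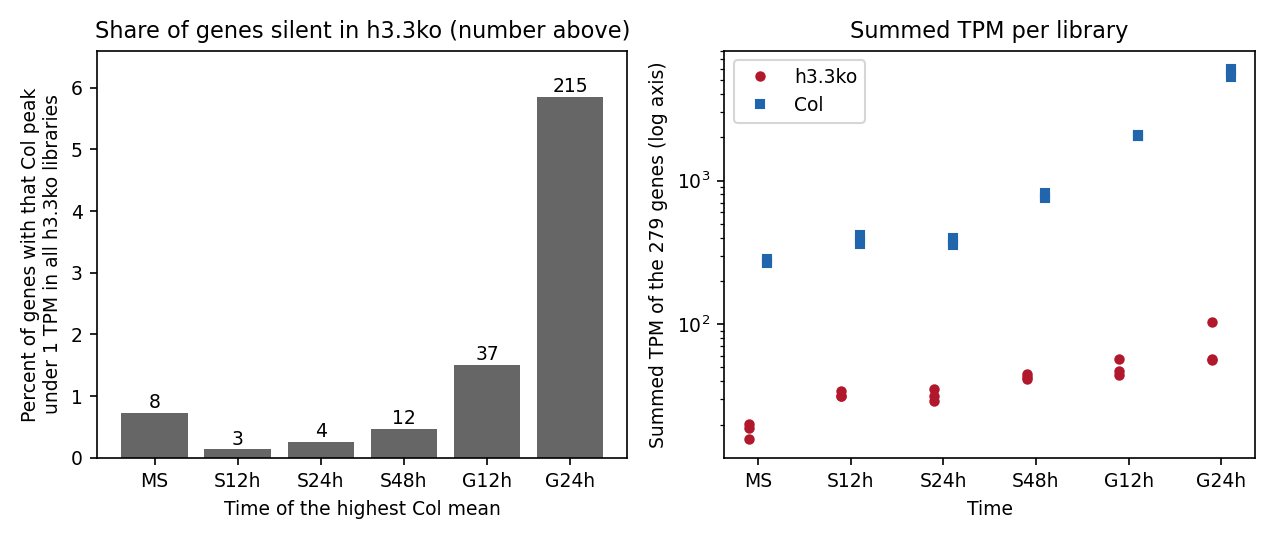
Left, percent of the genes with their highest Col mean at each time that were under 1 TPM in all *h3.3ko* libraries, with the number of such genes above each bar (8, 3, 4, 12, 37 and 215). Right, summed TPM of the 279 genes in each library on a log axis, with *h3.3ko* left of Col at each time; the lone high *h3.3ko* point at G24h is replicate 1, at 103.4 TPM.

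Silence was not the same as absence of reads. The *h3.3ko* libraries together held a median of 37 reads per gene, and 1 TPM stood for a median of 18.5 reads in a library. Only 3 genes, *AT3G22540*, *PUP19* and *AT4G31470*, had 0 reads in all 18 *h3.3ko* libraries. Another measure is the highest *h3.3ko* value of each gene, whose median was 0.512 TPM. At the time of their highest Col mean 14 genes had 0 reads in the 3 *h3.3ko* libraries, and against a floor of 3 reads per library this put *AT1G26400* at least 318-fold lower in *h3.3ko*, and the polygalacturonase gene *PGAZAT* (*ADPG2*) at least 252-fold lower. In all 279 genes the lowest Col library at the peak time lay above the highest *h3.3ko* library, a separation that the rule itself brings about.

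The set was made of genes with modest levels. Their median highest Col mean was 17.0 TPM, against 42.2 TPM for the other Col-expressed genes. Of the genes with a highest Col mean between 10 and 20 TPM, 165 of 3161 (5.22%) were silent in *h3.3ko*. The share was 90 of 4522 (1.99%) between 20 and 50 TPM, 22 of 2526 (0.871%) between 50 and 100 TPM and 2 of 3386 (0.0591%) above that. A fixed limit of 1 TPM is easier to meet for a gene with a low level, and this was not adjusted for. The low shares at high levels also depend on 1 library. *h3.3ko* G24h replicate 1 alone kept out 34 genes, with Col G24h means from 11.8 TPM (*EPF2*) to 1184 TPM (*ELP*). Among them were *AT5G46960* and *SAHH2*, at 418 and 360 TPM. The shares by level were not counted without that library. The genes were shorter than the rest, with a median genomic span of 1867 bp against 2442 bp and a median of 3 exons against 5, and 61 of them (21.9%) had a single exon, against 11.2% of the other Col-expressed genes. They were spread over the chromosomes, at 1.09, 1.09, 0.971, 0.957 and 0.964% of the genes on chromosomes 1, 2, 3, 4 and 5.

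At the limits, *AT1G10110* (0.996 TPM) and *AT4G11410* (0.999 TPM) had the highest *h3.3ko* values within the set, and *RCI2B* (1.001 TPM) and *ULT1* (1.004 TPM) fell just outside. On the Col side *MYB90* (10.01 TPM) and *GPRI1* (10.03 TPM) were just inside, and *XTH30* (9.97 TPM) and *MYB31* (9.99 TPM) just outside.

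*h3.3ko* G24h replicate 1 decided many of the highest *h3.3ko* values. It held the highest of the 18 values for 129 of the 279 genes. Among the 215 genes that peaked at G24h in Col it was the highest of the 3 *h3.3ko* G24h libraries for 173 (80.5%), against 22 of the 64 genes (34.4%) that peaked earlier and 25.5% of the 3463 other Col-expressed genes that peaked at G24h. Without it 313 genes met the limits, and 33 of the 34 added had their highest Col mean at G24h. The added genes included some with very high Col levels. *ELP*, which codes for an extensin-like protein, had 161, 0 and 0 reads in the *h3.3ko* G24h libraries (14.1, 0 and 0 TPM), against 1159, 1239 and 1154 TPM in Col. *CER1*, an enzyme of wax alkane synthesis, had 1.64, 0.0257 and 0.122 TPM in *h3.3ko* and 202, 216 and 228 TPM in Col at G24h. The aquaporin gene *GAMMA-TIP* had 2.68, 0 and 0.0763 TPM in *h3.3ko*, against 219, 225 and 206 TPM in Col. What set replicate 1 apart was not tested.

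Within Col, neighbouring times were compared by limma on log2(TPM + 1), with a gene called at a Benjamini-Hochberg adjusted p under 0.05 and a log2 fold change above 1 in size. The Col values also entered the rule through their highest group mean, so these counts describe timing. Each gene had 1 spread, shared over all 36 libraries. For the set, the 18 *h3.3ko* libraries were held under 1 TPM by the rule. The p-values and standard errors (SE) given for Col steps therefore do not measure the spread of Col replicates alone and can be too small. From MS to S12h, 21 of the 279 genes were called higher and 4 lower, where 35.1% of all tested genes were called higher and 4.25% lower, and 43.9% and 4.73% of the Col-expressed genes. At this step the tested genes had a median log2 fold change of 0.58 on TPM and 0.00 after median-of-ratios scaling, and the set had 0.00 on TPM. From S12h to S24h, 14 were called higher and 7 lower (12.9% and 7.05% of all tested genes, 16.8% and 8.33% of the Col-expressed ones). From S24h to S48h the counts were 58 and 9 (13.7% and 8.39%, and 16.2% and 10.8%). From S48h to G12h, 146 rose and 15 fell (21.6% and 10.9%, and 23.6% and 13.2%), and from G12h to G24h, 179 rose and 23 fell (11.4% and 4.04%, and 9.30% and 4.70%). On this scale the set stood below the background for rises at the steps to S12h (7.53%) and S24h (5.02%). It stood above the background at the steps to S48h (20.8%), G12h (52.3%) and G24h (64.2%). For falls it stood below the background until G12h and above it at the step to G24h (8.24%). A gene at 0 TPM has to pass 1 TPM to be called, and 239 and 231 members averaged under 1 TPM in Col at S12h and S24h. More members were called higher at those steps with a pseudocount of 0.1, so the low early counts depend in part on the pseudocount. Of the 279, 270 were called higher at 1 or more of the 5 steps, 49 lower at 1 or more, and 80 had the step from G12h to G24h as their only rise. The rule largely brings such rises about, since 255 members averaged under 1 TPM in Col at MS and all had to reach 10 TPM. These counts were not made over all genes, so they are not a result about the set.

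**Figure D3:**
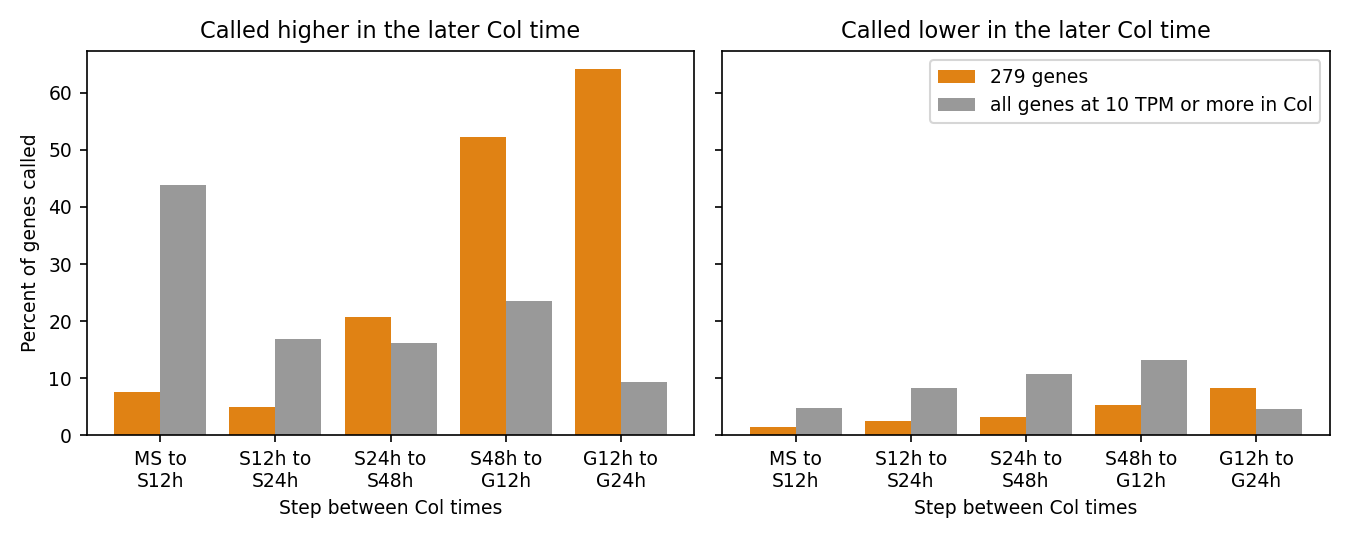
Percent of genes called higher (left panel) and lower (right panel) at each step between neighbouring Col times, for the 279 genes and for all 13595 genes at 10 TPM or more in Col. Rises of the set reached 52.3% at the step to G12h and 64.2% at the step to G24h, against 23.6% and 9.30% of all Col-expressed genes.

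The families named from here on were sorted by words in RefSeq product names, and a share is the percent of a family's genes at 10 TPM or more in Col that belonged to the set, beside 2.05% of all Col-expressed genes. Most members peaked at G24h. Of all Col-expressed genes that peaked then, 5.85% belonged to the set, and 11.8% of those with a highest Col mean between 10 and 20 TPM. Family shares were not adjusted for time or level, so a share near these values need not be a trait of the family. The words were edited after the members were seen, and genes sorted into no family gave 102 of 9518 (1.07%), so these shares are a description. Cell wall genes in the set included the member with the highest Col level. *BXL1* (AT5G49360, chromosome 5, 20011812 to 20016857) codes for a bifunctional xylosidase and arabinofuranosidase that trims pectic arabinan. It measured 0.934, 0.276 and 0.301 TPM in the *h3.3ko* G24h libraries, against 143, 152 and 189 TPM in Col, with no overlap. Its Col means over the 6 times were 0, 0.0140, 0.0930, 0.0802, 10.8 and 161 TPM. Single genes were named for their Col level and its time, so their Col profiles are given without a test, except for 1 step of *RHD6* that this choice did not use.

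Pectin enzymes gave 9 members of 53 such genes at 10 TPM or more in Col (17.0% silent). The pectate lyase gene *AT1G67750* had 0.805, 0.0515 and 0.0973 TPM in *h3.3ko* at G24h, against 73.9, 76.2 and 77.5 TPM in Col. A pair of genes for enzymes that cut pectin was highest earlier, at G12h. *PGAZAT*, a polygalacturonase known from organ shedding and pod opening, was at 0, 0 and 0 TPM in *h3.3ko* and 29.4, 31.2 and 33.3 TPM in Col at G12h, and its Col mean was 8.83 TPM at G24h. *AT2G43860*, of the pectin lyase-like superfamily, was likewise at 0, 0 and 0 TPM in *h3.3ko* and at 37.0, 31.3 and 35.3 TPM in Col. The neighbours *AT5G46940* and *AT5G46950*, both annotated as invertase and pectin methylesterase inhibitors, were silent together on chromosome 5. *AT5G46960*, the next gene and of the same family, was kept out by *h3.3ko* G24h replicate 1 alone, with 2.82, 0 and 0 TPM in *h3.3ko* against 359, 407 and 487 TPM in Col.

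Extensins, wall proteins rich in hydroxyproline that are crosslinked by peroxidases, gave, with other proline-rich wall proteins, 5 members of 34 (14.7%). *AT2G43150* (chromosome 2, 17945662 to 17947155) had 0.701, 0.0718 and 0.0678 TPM in *h3.3ko* and 76.8, 94.7 and 108 TPM in Col at G24h. *AT3G28550* and *AT1G23720* were at or near 0 at every Col time before G24h, where they had Col means of 33.7 ± 13.2 and 17.8 ± 6.06 TPM (SD, n = 3), with Col replicate 1 the lowest for both. Extensin genes are repetitive and alike, so reads of 1 may be counted for another. Class III peroxidases gave 3 members of 14 (21.4%), all highest at G24h. *AT2G18980* had 0.746, 0 and 0 TPM in *h3.3ko* and 55.1, 61.8 and 75.1 TPM in Col. *XTH17*, which cuts and rejoins xyloglucan, had 0.649, 0 and 0 TPM in *h3.3ko* and 31.8, 41.9 and 44.4 TPM in Col at G24h, and was the 1 xyloglucan enzyme gene of 19 (5.26%) in the set. *EXPA6*, the 1 expansin gene of 14 (7.14%), had 0.809, 0.567 and 0.577 TPM in *h3.3ko*, against 11.8, 11.7 and 12.1 TPM in Col. No arabinogalactan or fasciclin gene was in the set, of 26 at 10 TPM or more in Col, and no Casparian strip domain gene, of 12, although *FLA9* and *FLA1* were among those kept out by replicate 1.

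Enzymes of lipid, wax and cuticle synthesis had 5 members of 25. *KCS19*, a ketoacyl-CoA synthase of the family that lengthens fatty acids, had 0.800, 0.102 and 0 TPM in *h3.3ko* and 80.7, 75.1 and 80.7 TPM in Col at G24h. The fatty acid desaturase genes *ADS4* and *AT1G06360* lie next to each other on chromosome 1 (1935227 to 1940496). *ADS4* had 0, 0 and 0.132 TPM in *h3.3ko* at G12h, against 63.4, 59.2 and 67.4 TPM in Col, and *AT1G06360* had 0.132, 0.0656 and 0.130 TPM in *h3.3ko* against 60.7, 58.9 and 60.9 TPM in Col. Their Col timing differed by 1 step. *AT1G06360* had a Col mean of 34.9 TPM at S48h, where *ADS4* had 0.952 TPM, and the difference between S48h and G12h was 5.06 ± 0.10 for *ADS4* and 0.77 ± 0.09 for *AT1G06360* (log2 scale, SE). GDSL lipases, a large family of lipid esterases, added 4 of 32 (12.5%), among them the neighbours *AT4G16230* and *AT4G16233*, and *LTL1* at 0.953, 0 and 0 TPM in *h3.3ko* and 67.0, 76.1 and 70.8 TPM in Col at G24h. Of the 6 cytochrome P450 members (of 81), *CYP96A8* had 0.741, 0.117 and 0 TPM in *h3.3ko* and 55.1, 73.2 and 72.8 TPM in Col, and *CYP77B1* had 0.538, 0 and 0 TPM in *h3.3ko* and 47.8, 50.01 and 51.7 TPM in Col.

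Genes for enzymes of sugar and polysaccharide metabolism also belonged to the set. *ATBETAFRUCT4* codes for a vacuolar invertase, which splits sucrose, and had 0.705, 0.0267 and 0.0252 TPM in *h3.3ko*, against 72.4, 85.0 and 79.4 TPM in Col at G24h. With *BXL1* it was 1 of 9 glycoside hydrolase members of 129 (6.98%), all of them highest at G24h. *GulLO5*, annotated as a lactone oxidase, had 0.598, 0 and 0 TPM in *h3.3ko* and 72.1, 85.0 and 97.7 TPM in Col. *AT1G67330*, annotated as glucuronoxylan methyltransferase-like, had 0.554, 0 and 0 TPM in *h3.3ko* and 73.7, 85.3 and 97.0 TPM in Col. In all of these replicate 1 was again the highest *h3.3ko* library.

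**Figure D4:**
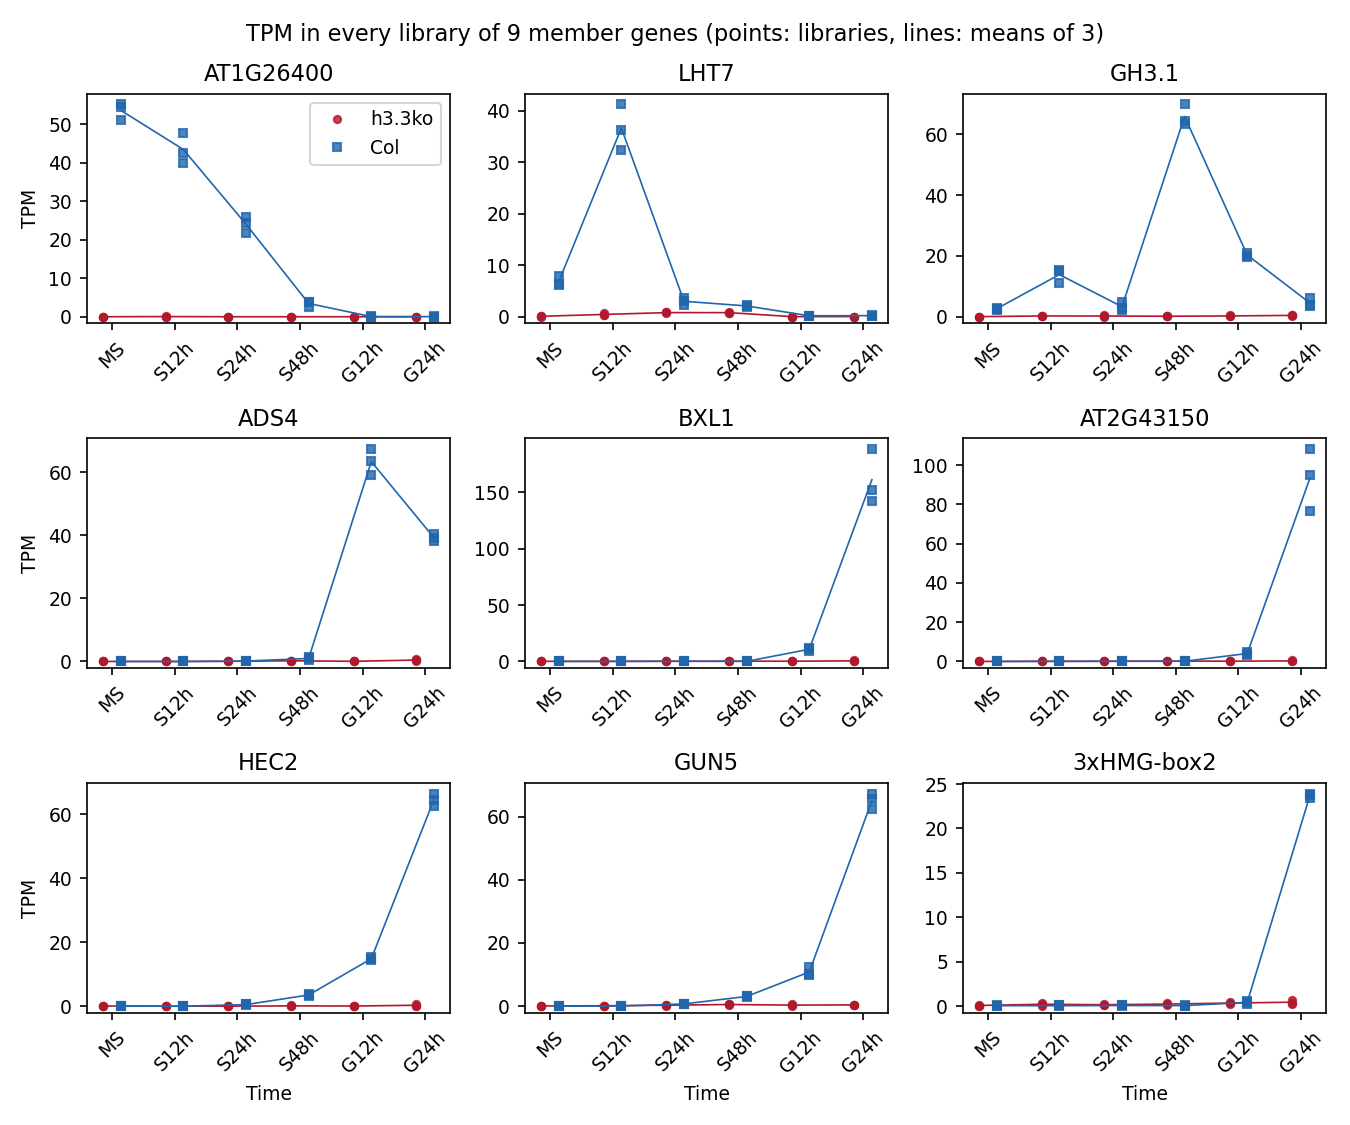
TPM in each of the 36 libraries for 9 genes of the set, with *h3.3ko* points left of Col points at each time and lines through the means of 3 libraries. *AT1G26400* was highest in Col mature seeds, *LHT7* at S12h, *GH3.1* at S48h, *ADS4* at G12h and the other 5 at G24h, while all *h3.3ko* points lie under 1 TPM.

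Transcription factors were the largest named class, with 35 members of 621 such genes at 10 TPM or more in Col (5.64%), 25 of them highest at G24h, 7 at G12h, 1 at S48h and 2 at S24h. *HEC2*, a HECATE basic helix-loop-helix factor, had 0.810, 0 and 0.0712 TPM in *h3.3ko* and 66.5, 64.6 and 62.7 TPM in Col at G24h, and its relative *HEC3* was also a member. *LATE*, a C2H2 zinc finger factor named for late flowering, had 0.198, 0.101 and 0.0955 TPM in *h3.3ko* and 63.2, 57.8 and 56.1 TPM in Col. It is 1 of the genes whose promoter is printed above. *BZIP61* had 0.782, 0.0843 and 0.0796 TPM in *h3.3ko* and 43.3, 58.1 and 55.5 TPM in Col. *KNAT1* (*BREVIPEDICELLUS*), a homeobox factor of the shoot meristem and stem, had its highest Col mean at G24h, at 20.1 ± 0.328 TPM, with no *h3.3ko* value above 0.775 TPM. *GPRI1* (*GLK1*), a factor for chloroplast genes, and *MYB90*, a factor for anthocyanin genes, sat at the lower limit of the set.

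*RHD6*, a factor that starts root hair formation, came up earlier than most. It had 0.720, 0.357 and 0.472 TPM in *h3.3ko* at G12h, against 20.2, 18.9 and 23.6 TPM in Col, where its means over the 6 times were 0.397, 5.95, 12.3, 10.4, 20.9 and 18.3 TPM. The rise from MS to S12h was called (log2 fold change 2.33 ± 0.11, SE from the fit of all 36 libraries), and it was also called with Col libraries only. Of a list of 28 root hair genes 3 reached 10 TPM in Col, and 2 of them, *RHD6* and the leucine-rich repeat extensin *LRX2*, belonged to the set; *EXPA7*, a defining root hair gene, stayed at a Col mean of 0.163 TPM or less. Summed over that list, *h3.3ko* held 6.98 to 9.30 TPM and Col 85.4 to 105.2 TPM at G24h. Of 8 xylem genes 2 reached 10 TPM in Col and 1, *XCP2*, was a member. *XCP2*, a peptidase of maturing xylem vessels, had 0.512, 0 and 0 TPM in *h3.3ko* and 25.6, 28.5 and 29.6 TPM in Col at G24h and was near 0 in Col before. The summed xylem list held 1.05 to 2.38 TPM in *h3.3ko* and 54.9 to 64.2 TPM in Col at G24h.

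The other cell type lists gave no member, but *h3.3ko* G24h replicate 1 alone kept out 1 gene each of the epidermis and stomatal lists. These were *CER1*, described above, and *EPF2*, at 1.32, 0.581 and 0.732 TPM in *h3.3ko* at G24h. Of 11 endodermis genes 2 reached 10 TPM in Col, of 4 root cap genes 0, of 6 stomatal lineage genes 3 and of 5 epidermis genes 5. At G24h the summed epidermis list held 193 to 220 TPM in *h3.3ko* and 2036 to 2217 TPM in Col, the stomatal list 6.45 to 6.91 TPM in *h3.3ko* and 48.1 to 51.1 TPM in Col, the endodermis list 12.2 to 13.9 TPM in *h3.3ko* and 50.9 to 58.6 TPM in Col, and the root cap list 1.89 to 2.41 TPM in *h3.3ko* and 8.58 to 11.6 TPM in Col. Sums can rest on 1 gene: *PDF1* made 72.1% of the epidermis sum and *CIF2* 77.9% of the endodermis sum in Col. Gene by gene, the G24h mean was lower in *h3.3ko* for 21 of the 28 root hair genes and higher for 3, lower for 5 and higher for 3 of the 11 endodermis genes, and lower for all of the xylem, stomatal, epidermis and root cap genes. Of the 2 endosperm genes *EPR1* averaged 9.85 TPM in *h3.3ko* and 378 TPM in Col at G24h, whereas *MAN7* averaged 92.0 TPM in *h3.3ko* and 87.9 TPM in Col. The part of cell type makeup in the silence of the set was not tested.

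Cell division and chromosome proteins gave 7 members of 72 (9.72%), all highest at G24h. *3xHMG-box2*, a protein that sits on mitotic chromosomes, had 0.659, 0.295 and 0.398 TPM in *h3.3ko*, against 23.8, 23.4 and 23.9 TPM in Col, and its Col mean at G12h was 0.429 TPM. *CDKB2;1*, a plant mitotic kinase, had 0.801, 0.627 and 0.729 TPM in *h3.3ko* and 13.7, 17.5 and 17.3 TPM in Col. *TON1B*, needed for the ring of microtubules that marks the plane of division, had 0.983, 0.755 and 0.911 TPM in *h3.3ko*, close to the limit, and 18.9, 21.6 and 22.3 TPM in Col. The other 4 were *CDKB1;1*, the cyclin gene *CYC1BAT*, the spindle checkpoint gene *MAD2* and the topoisomerase gene *TOPII*, with highest Col means between 10.5 and 15.6 TPM.

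Photosynthesis gave 7 members of 66 (10.6%), again all highest at G24h. *GUN5*, the large subunit of the magnesium chelatase that starts the chlorophyll branch, had 0.491, 0.419 and 0.277 TPM in *h3.3ko* and 65.5, 62.4 and 67.3 TPM in Col. It began before most: its Col means were 0, 0.0480, 0.718, 3.08, 10.8 and 65.0 TPM. *LHCB2.1*, a protein of the light-harvesting antenna, instead came up at the last step alone. It had 0.351, 0.0719 and 0 TPM in *h3.3ko* and 36.6, 34.3 and 40.1 TPM in Col, and 0 TPM in Col at G12h. *LHCB2.1* and its neighbour *LHCB2.2* on chromosome 2 are near-identical copies, as are the small subunit genes of which *RBCS1B* is 1, so their shares of reads are uncertain. The photosystem I gene *PSAH2* had 0.962, 0.739 and 0.581 TPM in *h3.3ko* and 25.4, 28.1 and 31.3 TPM in Col, and the remaining members were *PSBQ-2* and *PnsB2*.

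Auxin-related genes gave 6 members of 68 (8.82%). *GH3.1*, of the enzyme family that joins amino acids to hormones such as auxin, was highest at S48h, where it had 0.126, 0.212 and 0.135 TPM in *h3.3ko* and 63.3, 64.5 and 70.0 TPM in Col. Its Col means went up and down, at 2.63, 13.9, 3.31, 65.9, 20.3 and 4.53 TPM. The small auxin-responsive genes *AT4G31320* and *AT1G19830* had 0.876, 0.560 and 0.635 TPM and 0.252, 0 and 0.488 TPM in *h3.3ko* at G24h, against 39.0, 41.2 and 43.5 TPM and 35.1, 32.3 and 33.9 TPM in Col. *IAA7* and *AXR3*, which code for auxin response repressors, had Col means of 30.6 ± 1.40 and 14.8 ± 0.644 TPM at G24h (SD, n = 3).

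Late embryogenesis abundant type genes gave 7 members of 47 (14.9%), though the family is best known from maturing seeds. None of the 7 was highest in mature seeds: 5 peaked at G24h and 2 at G12h. *AT2G03850* had 0.257, 0.0877 and 0.0829 TPM in *h3.3ko* and 35.7, 37.3 and 46.7 TPM in Col at G24h, and 0 TPM in Col until S48h. *AT5G60530* had 0.537, 0.0549 and 0 TPM in *h3.3ko* and 33.1, 31.1 and 33.8 TPM in Col, and its neighbour *AT5G60520* was also silent. *AT1G08160*, 1 of the hydroxyproline-rich relatives of this family, had 0.212, 0 and 0.104 TPM in *h3.3ko* and 31.5, 25.8 and 32.0 TPM in Col at G12h.

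Among transporters and channels, 14 of 452 (3.10%) were members. *CLC-A*, which loads nitrate into the vacuole, had 0.433, 0.183 and 0.320 TPM in *h3.3ko* and 27.4, 31.1 and 36.2 TPM in Col at G24h. Kinases gave 9 of 601 (1.50%), led by *EMB1290*, *RKL1* and *SNRK2.7*, peptidases and other hydrolases 17 of 729 (2.33%), and genes whose product name gives no function 18 of 787 (2.29%). These 3 shares lay near that of all Col-expressed genes. Defensins and small secreted peptides gave 2 of 22 (9.09%). Glycosyltransferases gave 5 of 94 (5.32%), led by *UGT73C1* at 0.123, 0.250 and 0.132 TPM in *h3.3ko* and 25.2, 24.2 and 24.0 TPM in Col at S48h.

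**Figure D5:**
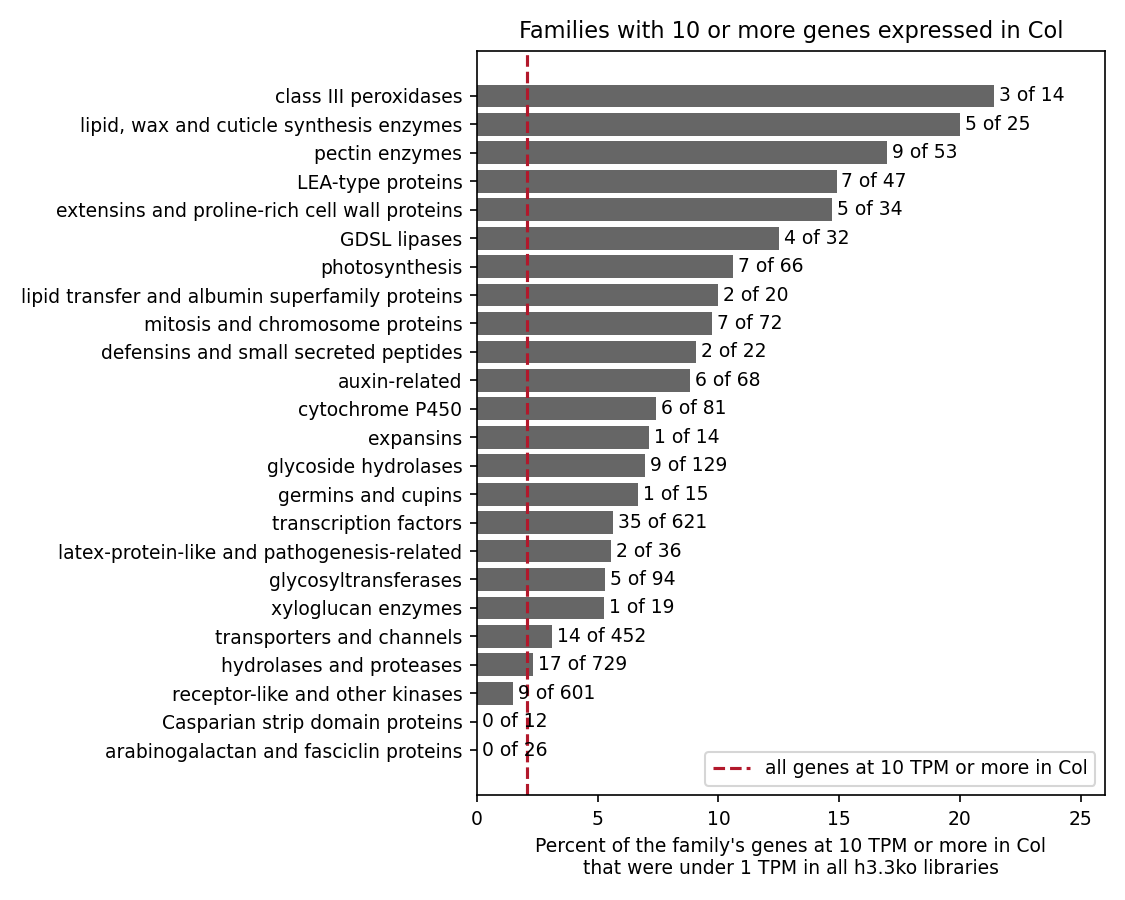
Percent of each family's genes at 10 TPM or more in Col that were under 1 TPM in all *h3.3ko* libraries, with the counts beside the bars, for families with 10 or more genes at that level; the dashed line is the 2.05% of all Col-expressed genes. Peroxidases (3 of 14) and lipid and wax enzymes (5 of 25) stand at the top, from few genes, and arabinogalactan and fasciclin proteins (0 of 26) and Casparian strip domain proteins (0 of 12) at the bottom. Shares were not adjusted for time or level, and of all genes with their highest Col mean at G24h 5.85% were silent.

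The 8 genes that were highest in mature seeds of Col are unlike the rest, since their transcripts were present before imbibition. *AT1G26400* (chromosome 1, 9133291 to 9134874), of the FAD-binding berberine bridge family, had 0, 0 and 0 TPM in *h3.3ko* mature seeds and 51.0, 54.6 and 55.2 TPM in Col. It had 2 reads in the 18 *h3.3ko* libraries together, against 3008 reads in the 3 Col libraries at MS. Its Col means over the 6 times were 53.6, 43.4, 24.0, 3.46, 0.0249 and 0.0249 TPM. *AT4G20820*, of the same family, had 0.329, 0.507 and 0.175 TPM in *h3.3ko* and 27.5, 26.7 and 25.7 TPM in Col at MS. *CSLG3*, a cellulose synthase-like gene, had 0.479, 0.592 and 0.503 TPM in *h3.3ko* and 31.1, 34.8 and 30.0 TPM in Col at MS.

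The 3 genes with their highest Col mean at S12h differed in what preceded it. *LHT7*, an amino acid transporter of the lysine and histidine family, had 0.313, 0.339 and 0.698 TPM in *h3.3ko* at S12h, against 36.3, 32.5 and 41.3 TPM in Col. Its Col mean was 6.79 TPM at MS and 3.005 TPM at S24h. *AT3G44800*, with a MATH domain, had 0.449, 0.437 and 0.203 TPM in *h3.3ko* and 27.5, 19.1 and 20.6 TPM in Col at S12h, and 0.0936 TPM in Col mature seeds. *JAZ4*, a repressor of jasmonate responses, had 0.324, 0.315 and 0.373 TPM in *h3.3ko* and 19.99, 18.9 and 24.0 TPM in Col at S12h, and it was already at 18.04 TPM in Col mature seeds, a log2 difference of 0.20 ± 0.13 (SE).

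*ARD3*, an enzyme of the methionine salvage cycle, followed at S24h, with 0, 0 and 0 TPM in *h3.3ko* and 24.5, 25.9 and 23.3 TPM in Col, and was down to 0.473 TPM in Col at S48h. This was at least 126-fold lower in *h3.3ko* against a floor of 3 reads per library. *TCP17*, a growth-regulating factor of the TCP family, had 0.320, 0.554 and 0.187 TPM in *h3.3ko* and 12.6, 10.7 and 12.2 TPM in Col at S24h. At S48h *AT5G44563*, a gene of unknown function that overlaps another annotated gene, had 0.112, 0.341 and 0.1199 TPM in *h3.3ko* and 114, 99.7 and 90.3 TPM in Col, the second highest Col level of the set. *AT4G11340*, a TIR-NBS-LRR disease resistance family gene, had 0.656, 0.685 and 0.294 TPM in *h3.3ko* and 34.5, 32.99 and 30.7 TPM in Col at S48h. *AT3G20395*, a RING/U-box gene whose promoter is printed above, was highest at G12h, with 0.0550, 0.273 and 0.486 TPM in *h3.3ko* and 48.4, 56.1 and 53.7 TPM in Col, and a Col mean of 10.4 TPM at G24h.

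The set held 12 pairs of neighbours with at most 1 gene between them and no run of 3 or more. Without *h3.3ko* G24h replicate 1 there were 13 pairs and 2 runs of 3, *AT4G23670*, *AT4G23680* and the member *DIR6* on chromosome 4 (12332429 to 12339967) and *AT5G46940*, *AT5G46950* and *AT5G46960* on chromosome 5 (19058031 to 19062814), so that library alone decided whether such a run was found. Besides those named above, *WRKY29* and the endoglucanase gene *GH9B15* lie side by side on chromosome 4 (12291632 to 12295859), and *AT2G43140*, a basic helix-loop-helix gene, lies beside the extensin gene *AT2G43150* on chromosome 2. In total 49 of the 279 genes overlap another annotated gene, among the named ones *AT5G44563*, *AT4G11340*, *LHT7*, *AT1G67330*, *3xHMG-box2*, *CDKB2;1*, *PSAH2*, *CLC-A*, *BZIP61* and *GH9B15*. The libraries did not mark strand, so reads from the overlapping stretch cannot be assigned to either gene.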

How the data were processed

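Libraries from total RNA of whole seeds were made with a BGISEQ-500 kit that does not mark strand and read on a DNBSEQ-T7, with 3 biological replicates per group per the study's methods. The authors trimmed reads with fastp 0.20.1, aligned them to TAIR10 with HISAT2 2.1.10 and counted them per gene with HTSeq 0.11.2, and the deposited unit is TPM. Multiplying each deposited TPM by the genomic span of the gene gave whole reads, within 0.01 read, for over 99% of values, so introns enter the length. TPM keeps no correction for shares taken by other genes. Read floors cover counting error only.

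Genes that reached 1 TPM in 3 or more of the 36 libraries (19052, all 279 included) were fitted by limma 3.58.1 in R 4.3.3 on log2(TPM + 1), with a pseudocount of 1, 12 group means, a variance trend and Benjamini-Hochberg adjustment. A fold change on this scale understates changes of low genes. Before use the fit was run on simulated data with changed genes, in which all 36 libraries were drawn around Col means. Those data held no genes kept under 1 TPM in *h3.3ko* alone, so they do not test the SE of the set. Genes were annotated, and promoters read, from RefSeq TAIR10.1 (27444 of 27445 nuclear genes matched), whose chromosomes are those of TAIR10. Families were assigned from words in RefSeq product names, and these words were edited after the members were seen, so that members may be sorted more fully than other genes and a family's share may run high.

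The members and lists were chosen with earlier results of these data known. Genes were named by a rule: the 3 members with the highest Col peak mean for each peak time (6 for G24h), in each family and in each marker list, the 3 highest at MS, and the 2 nearest to each limit. *AT2G42660*, *KNAT1*, *HEC3*, *IAA7*, *AXR3*, *AT3G22540*, *PUP19*, the neighbour pairs, the remaining division and photosynthesis members the genes kept out by 1 library, *PDF1*, *CIF2*, *EPR1* and *MAN7* were chosen after their values were seen. Same-numbered Col libraries deviated together between S12h and S24h (correlations of 0.149, 0.258 and 0.213) and not in every pair at the other 4 steps. Alternatives were other limits, scalings, pseudocount, filters, a replicate block, voom on the recovered reads and leaving out each library; the runs of neighbours without each *h3.3ko* library were added after the data were seen.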

Additional observations from a re-analysis of the deposited data

How the results depend on the processing

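The number of silent genes followed the limits. It was 133 with a silence limit of 0.5 TPM (105 with their highest Col mean at G24h), 456 with 2 TPM (329), 563 with a Col minimum of 5 TPM (414) and 114 with 20 TPM (86). Median-of-ratios scaling gave 202 (149), and asking for 10 TPM in each of the 3 libraries of a Col group gave 246 (186). Leaving out 1 library at a time gave 274 to 313 genes and 210 to 248 peaking at G24h, the upper ends without *h3.3ko* G24h replicate 1.

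The counts that follow are of members alone. The shares of all tested genes under each alternative are not given here, so the counts do not show whether the set stayed below or above the background. Members called higher at the 5 steps, in time order, numbered 44, 45, 109, 194 and 188 with a pseudocount of 0.1 and 45, 47, 114, 200 and 188 by voom, with 9, 17, 16, 21 and 26 and 14, 22, 17, 21 and 25 called lower. A filter at a mean of 5 TPM left 33 members, with 6, 2, 10, 22 and 16 higher and 0, 2, 2, 4 and 6 lower. Median-of-ratios scaling gave 15, 12, 51, 130 and 179 higher and 15, 11, 9, 16 and 17 lower, and quantile normalization 12, 13, 43, 114 and 180 higher and 13, 9, 10, 24 and 27 lower, so at the step to S12h rises and falls were about equal under both scalings. With no filter, with Col libraries only, and with the replicate block on Col libraries only, the counts were 21, 14, 58, 146 and 179 higher and 4, 7, 9, 15 and 23 lower, as without the block, and the pairing changed no call among the 80 called steps of named genes. Leaving out 1 library gave 20 to 22, 13 to 16, 55 to 60, 144 to 151 and 178 to 181 higher, and 4 to 6, 7 to 9, 9 to 11, 14 to 16 and 19 to 22 lower. Of the called steps of named genes, 6 were lost under a scaling alternative and 0 turned in direction under any alternative. Runs of 3 neighbouring genes numbered 2 without *h3.3ko* G24h replicate 1, and 0 with it or without any other *h3.3ko* library.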

Other observations

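Several members not described above were chosen after their values were seen; the errors are SD over 3 Col libraries. *ACS7*, an enzyme of ethylene synthesis, stayed at or under 0.158 TPM in *h3.3ko* and averaged 11.01 ± 1.68 TPM in Col at G24h. *ARR3*, a response regulator of cytokinin signalling, stayed at or under 0.897 TPM in *h3.3ko* and averaged 13.9 ± 0.156 TPM in Col at G24h. *RGF7*, annotated as a root meristem growth factor, stayed at or under 0.654 TPM in *h3.3ko* and averaged 15.7 ± 2.14 TPM in Col at G24h.

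*HMA4*, a pump that exports zinc from cells, stayed at or under 0.445 TPM in *h3.3ko* and averaged 18.9 ± 1.09 TPM in Col at G12h, its highest Col time. *TRY*, a small MYB-type protein that restrains trichome formation, stayed at or under 0.921 TPM in *h3.3ko* and averaged 14.4 ± 1.49 TPM in Col at G12h.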
